A study of Arabidopsis thaliana with 6 samples.

Results

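Inflorescences of *sep1 sep2 sep3* plants that express *SEP3* (2 independent lines, 1 library each) were compared with inflorescences of the *sep1 sep2* double mutant (2 libraries), to describe the genes that still differed once *SEP3* was supplied to the triple mutant. All 3 genotypes of the series carry *sep1* and *sep2* mutations according to their labels, and the lines carried the *sep3* mutation as well. The labels describe the tissue as inflorescence meristem with flower buds. Which promoter drives *SEP3* in the lines, and which mutant alleles were used, is not given in the sources used here. The series holds 6 libraries, and the other 2 are labelled *sep1 sep2 sep3*. Since *SEP3* counts in those 2 were not lower than in *sep1 sep2*, they are called the libraries labelled *sep1 sep2 sep3* here. Genes were taken up where at least 1 CPM (a count scaled to a fixed library total) was reached in 2 or more of the 4 libraries compared, which held for 19017 of 33610 genes.

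SEPALLATA proteins are MADS-box transcription factors that join the floral organ identity proteins, such as APETALA3, PISTILLATA and AGAMOUS, into DNA-binding complexes of 4 subunits. They act largely redundantly: plants with SEP3 alone among SEP1, SEP2 and SEP3 still make flowers with petals, stamens and carpels, whereas loss of these genes together turns the inner organs into sepal-like ones. Stamens hold the tapetum, the cell layer that feeds the developing pollen and makes its wall and coat, and carpels hold the ovules.

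In the complemented lines 166 genes were differentially expressed (DE) relative to *sep1 sep2*, which is 0.873% of the genes tested. A gene counted as DE when edgeR's quasi-likelihood test gave it a false discovery rate (FDR) under 0.05 and its level differed more than 2-fold. Of these, 49 (0.258% of genes tested) were higher in the lines and 117 (0.615%) were lower. The median log2 fold change was 1.91 among the higher genes, -1.83 among the lower ones and -0.02 over all genes tested. Normalized values in every library of the lines lay outside the range of the *sep1 sep2* libraries for 100% of the DE genes, against 51.3% of all genes tested. At an unadjusted p-value under 0.05 there were 3880 genes (20.4%). The higher genes lay mostly on chromosome 1 near *SEP3*, 15 of the lower genes belonged to 4 lists of stress, touch and cold genes, and of the listed floral identity, carpel and meristem genes *SEP3* alone was DE. All lists were chosen with earlier results of these data known.

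Libraries held between 24000063 and 31263376 counts on genes. The *sep1 sep2* libraries differed from each other at least 2-fold in 255 genes, of which 226 (1.19% of genes tested) were higher in replicate 1 and 29 (0.152%) in replicate 2. Nothing in the labels says whether these libraries came from separate plants, so p-values measure only the spread between libraries. Leaving out *sep1 sep2* replicate 1 reduced the DE genes to 33, of which 23 were higher and 10 lower, and 28 of the 33 were among the 166. Without *sep1 sep2* replicate 2 there were 141 DE genes, 20 higher and 121 lower, and without line 2 there were 76, 31 higher and 45 lower.

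*SEP3* (AT1G24260, chromosome 1, 8593536 to 8596123 in TAIR10.1) had 489 CPM in line 1 and 332 CPM in line 2, against 131 and 136 CPM in *sep1 sep2*. Both lines were above all other libraries, and the libraries labelled *sep1 sep2 sep3* had 149 and 150 CPM. The log2 fold change of *SEP3* was 1.62 (FDR 0.0131 in edgeR's test, standard error 0.17), with means of 411 ± 111 CPM in the lines and 134 ± 3.55 CPM in *sep1 sep2* (SD, n = 2 each). Its log2 fold change was 1.61 without *sep1 sep2* replicate 1 and 1.65 without replicate 2, and *SEP3* was DE in 16 of 19 alternative settings. *SEP2* (AT3G02310) had 16.6 CPM in line 1 and 108 CPM in line 2, against 79.5 and 44.4 CPM in *sep1 sep2*. The lines enclosed the *sep1 sep2* values, so *SEP2* differed more between the 2 lines than between the lines and *sep1 sep2* on average (log2 fold change 0.01, standard error 0.69). Line 1 was near the libraries labelled *sep1 sep2 sep3*, which had 15.5 and 11.5 CPM of *SEP2*. *SEP1* (AT5G15800) was low throughout, at 2.15 and 4.11 CPM in the lines and 2.63 and 2.00 CPM in *sep1 sep2*. *SEP4* (AT2G03710) had 21.9 and 32.1 CPM in the lines and 25.9 and 28.3 CPM in *sep1 sep2*, and its log2 fold change was -0.01 (standard error 0.18).

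The genes beside *SEP3* were also examined, a choice made after their values were seen. AT1G24250, which encodes a paired amphipathic helix protein and is the nearest gene with appreciable counts on the 3′ side of *SEP3*, had 16.3 and 11.9 CPM in the lines, against 2.83 and 5.96 CPM in *sep1 sep2*. Both lines exceeded both *sep1 sep2* libraries, and the libraries labelled *sep1 sep2 sep3* held 1.33 and 0.473 CPM, but the log2 fold change of 1.69 (standard error 0.44) had an FDR of 0.102 in edgeR's test. The next gene, AT1G24240 of the ribosomal protein L19 family, had 25.2 and 25.0 CPM in the lines and 13.1 and 13.3 CPM in *sep1 sep2*, a log2 fold change of 0.93 (FDR 0.0184), which was below the fold threshold. On the 5′ side AT1G24265 had 15.8 and 17.9 CPM in the lines, against 15.0 and 16.6 CPM in *sep1 sep2*.

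Of 9 tested MADS-box genes of floral organ identity, 0 were DE in edgeR's test and 0 in DESeq2. An unadjusted p under 0.05 in edgeR's test was reached by 2 of the 9 and by 20.4% of all genes tested. Log2 fold changes of the 9 ran from -0.57 to 0.93, with a median of -0.12. *CAL*, a close relative of *AP1*, was at the upper end, with 11.3 and 13.1 CPM in the lines, against 8.40 and 4.38 CPM in *sep1 sep2* (edgeR FDR 0.129). *AG*, which specifies stamens and carpels, had 75.1 and 57.0 CPM in the lines, against 76.8 and 89.7 CPM in *sep1 sep2* (log2 fold change -0.33, standard error 0.14, FDR 0.248). *AP1*, which marks floral meristems and sepals, had 185 and 161 CPM in the lines, against 215 and 206 CPM in *sep1 sep2* (FDR 0.182), and 383 and 372 CPM in the libraries labelled *sep1 sep2 sep3*. The B-class genes *AP3* and *PI*, needed for petals and stamens, had log2 fold changes of 0.14 and 0.09 with standard errors of 0.11 and 0.13. All 4 are defining genes of flower tissue and were abundant in every library.

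Of 17 tested carpel and ovule genes, 0 were DE, with a median log2 fold change of 0.11, while DESeq2 called 1. An unadjusted p under 0.05 in edgeR's test was reached by 4 of the 17 and by 20.4% of all genes tested. *CRC*, a regulator of carpel and nectary growth, had 47.0 and 65.4 CPM in the lines, against 46.6 and 55.5 CPM in *sep1 sep2*, whereas the libraries labelled *sep1 sep2 sep3* had 14.0 and 9.6 CPM. *SPL*, required for the first sporogenous cells of anthers and ovules, had 17.3 and 17.7 CPM in the lines, against 12.1 and 14.4 CPM in *sep1 sep2*. The ovule gene *STK* set the lines apart from each other, with 9.91 CPM in line 1 and 3.63 CPM in line 2, against 11.2 and 9.0 CPM in *sep1 sep2*. The largest fold change in this list belonged to *NGA4*, a gene of apical carpel tissue, at 2.76 and 2.02 CPM in the lines and 6.01 and 5.83 CPM in *sep1 sep2* (log2 fold change -1.30, FDR 0.070). Counts of inflorescence meristems together with buds cannot tell fewer cells of a type from less RNA per cell. Lists of meristem genes (12 tested, median 0.06), petal cutin genes (14 tested, median -0.04) and mitotic cyclins with their kinases (13 tested, median 0.01) likewise held 0 DE genes in edgeR's test, with 2 each at an unadjusted p under 0.05, and DESeq2 called 1 meristem gene. Of 7 seed storage genes, 0 passed the filter on low counts, and of 14 genes of mature pollen 3 passed it.

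**Figure D1:**
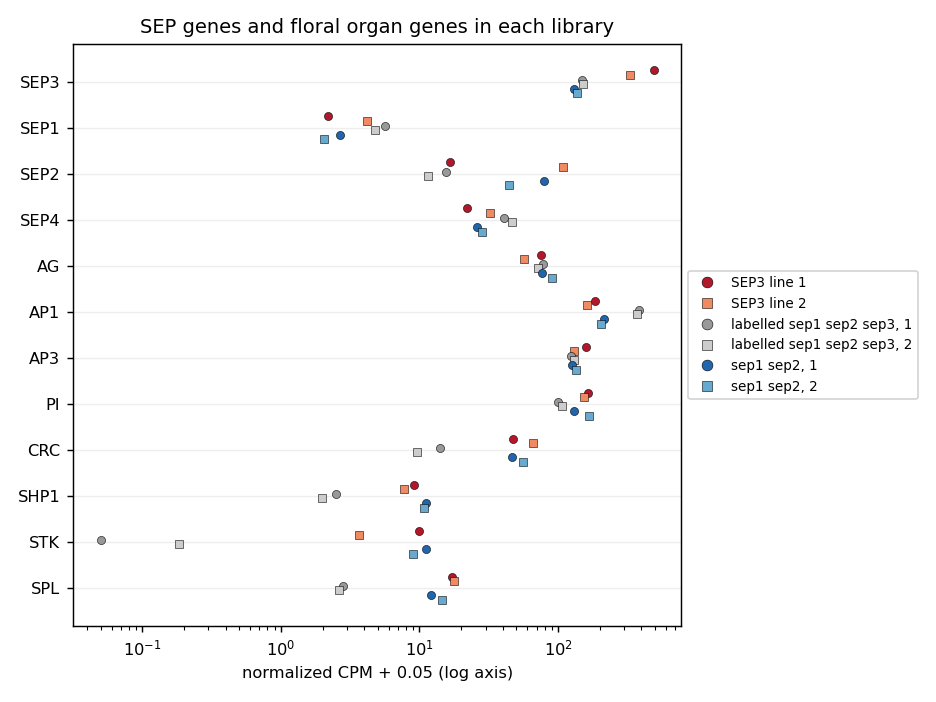
Normalized CPM (log axis, 0.05 added) of *SEP* genes and floral organ genes in each of the 6 libraries, with the complemented lines in red and orange, the libraries labelled *sep1 sep2 sep3* in grey and *sep1 sep2* in blue. *SEP3* stood at 489 and 332 CPM in the lines against 131 and 136 CPM in *sep1 sep2*, whereas *CRC*, *SHP1* and *SPL* of the lines lay close to *sep1 sep2* and above the grey points.

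The 49 higher genes were not spread evenly over the genome. Within 5 Mb of *SEP3* on chromosome 1, 37 of 1714 tested genes were higher in the lines (2.16%) and 23 were lower (1.34%). On the rest of chromosome 1, 1 of 3276 tested genes was higher (0.0305%) and 14 were lower (0.427%). Chromosomes 2 and 5 together held 0 higher genes, chromosome 3 held 5 (0.132%) and chromosome 4 held 2 (0.0706%). The other 4 higher genes have no RefSeq position, and 3 of them carry chromosome 1 identifiers. The higher genes nearest the edges of this window lay 4.93 Mb before and 2.72 Mb after *SEP3* in chromosome order. The windows were chosen after the positions were seen. A pair of further stretches held more DE genes than the remaining genome, the last 5 Mb of chromosome 3 (5 higher and 15 lower of 1086) and the last 3 Mb of chromosome 4 (1 higher and 9 lower of 655). At all other positions 2 of 15435 genes were higher (0.013%) and 68 were lower (0.441%). Those positions include the 1 Mb of chromosome 1 that starts at 27 Mb, which held 1 higher and 5 lower of 232 tested genes.

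**Figure D2:**
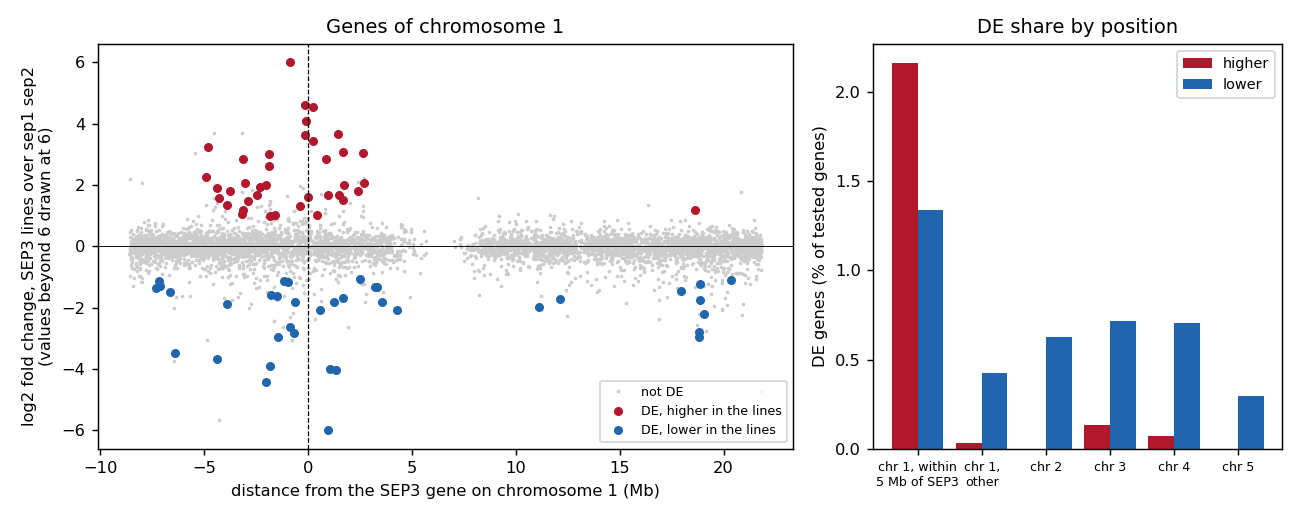
Left, log2 fold change of the tested genes of chromosome 1 (lines over *sep1 sep2*) by distance from *SEP3* in Mb, with DE genes in red (higher) and blue (lower). Right, DE genes in percent of tested genes within 5 Mb of *SEP3*, on the rest of chromosome 1 and on the other chromosomes, where the higher genes made up 2.16% in the first window and 0.0305% on the rest of chromosome 1.

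The 12 genes with the largest rise all have chromosome 1 identifiers. AT1G11280, an S-locus lectin receptor kinase (chromosome 1, 3787318 to 3790935), had 52.2 and 44.8 CPM in the lines, against 5.65 and 4.58 CPM in *sep1 sep2* (log2 fold change 3.24 ± 0.15 standard error, edgeR FDR 0.00028). AT1G10980, a seven-transmembrane receptor family gene (chromosome 1, 3667224 to 3669935), had 44.4 and 44.0 CPM in the lines, against 9.11 and 9.46 CPM in *sep1 sep2* (log2 fold change 2.25, FDR 0.00028). The groups did not overlap by a wide margin in either gene, and the libraries labelled *sep1 sep2 sep3* had 49.2 and 53.7 CPM of the first and 28.3 and 30.5 CPM of the second, closer to the lines than to *sep1 sep2*. Both comparisons use the same *sep1 sep2* libraries.

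A run of 4 neighbouring genes about 0.1 Mb from *SEP3* was among the 12. AT1G23935, annotated as an apoptosis inhibitory protein, had 15.4 and 18.3 CPM in the lines, against 1.19 and 0.167 CPM in *sep1 sep2* (log2 fold change 4.60). AT1G23950 and AT1G23960, of the DUF626 family, had 43.0 and 43.1 CPM and 39.5 and 47.0 CPM in the lines, against 5.29 and 1.54 CPM and 4.54 and 0.50 CPM in *sep1 sep2*. AT1G23940, between them by its identifier, had 19.9 and 25.5 CPM in the lines and 2.71 and 0.583 CPM in *sep1 sep2*. The libraries labelled *sep1 sep2 sep3* were near the lines in all 4 genes. They held 12.9 and 17.3 CPM of AT1G23935 and 36.6 and 39.5 CPM of AT1G23950. Of AT1G23960 they held 38.9 and 37.3 CPM, and of AT1G23940 22.6 and 20.4 CPM. *sep1 sep2* replicate 1 was above replicate 2 in all 4 genes, and all 4 were still DE without it, with larger fold changes (log2 4.81 to 6.63). AT1G23935 (8461757 to 8469573) overlaps AT1G23950 (8469533 to 8471417) on the other strand only at their ends. Where counting did not use the strand, reads within that short shared stretch cannot be told apart.

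The remaining genes of this group differ in known function. AT1G25211, an F-box gene (chromosome 1, 8835386 to 8837007), had 14.2 and 14.3 CPM in the lines, against 0.875 and 0.333 CPM in *sep1 sep2* (log2 fold change 4.54, FDR 0.0029). *PAI3*, a tryptophan pathway gene with near-identical family copies, had 11.4 and 10.7 CPM in the lines, against 1.99 and 0.583 CPM in *sep1 sep2*. Reads that map equally well to several copies were not counted. AT1G27180, a TIR-NBS-LRR resistance gene, had 9.24 and 9.92 CPM in the lines, against 1.71 and 0.958 CPM in *sep1 sep2*. In all 3 genes the libraries labelled *sep1 sep2 sep3* were near the lines, between 9.21 and 12.7 CPM. AT1G31600, an RNA-binding protein gene, had 45.5 and 51.5 CPM in the lines and 14.4 and 8.42 CPM in *sep1 sep2*. *TTN10*, a subunit of the GINS complex of DNA replication, had 14.1 and 12.9 CPM in the lines and 3.26 and 3.42 CPM in *sep1 sep2*. AT1G16260, a wall-associated kinase, was the least certain of the 12, at 6.63 and 11.2 CPM in the lines and 2.87 and 1.33 CPM in *sep1 sep2* (log2 fold change 2.08, standard error 0.40, FDR 0.0499 in edgeR's test). The libraries labelled *sep1 sep2 sep3* were again near the lines. They had 49.0 and 49.4 CPM of AT1G31600, 12.3 and 15.3 CPM of *TTN10*, and 7.42 and 9.29 CPM of AT1G16260.

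A few higher genes set the lines apart from all 4 other libraries, as *SEP3* did. By a margin of over 1.5 times this held for 6 of the 49, a margin chosen after the values were seen. Besides *SEP3* they were *THI2.1*, *ABCC9*, *eIF4E3*, AT1G19396 and AT1G22000. *THI2.1*, a thionin of plant defence, had 23.3 and 33.0 CPM in the lines, against 10.2 and 14.6 CPM in *sep1 sep2* and 5.25 and 6.08 CPM in the libraries labelled *sep1 sep2 sep3*. The transporter gene *ABCC9* had 40.3 and 36.4 CPM in the lines, against 12.9 and 7.79 CPM in *sep1 sep2* (log2 fold change 1.89, FDR 0.023 from edgeR's test). *eIF4E3*, a cap-binding translation factor gene, had 16.7 and 14.4 CPM in the lines, against 4.02 and 3.67 CPM in *sep1 sep2*. AT1G22000, an F-box/LRR gene, had 74 and 42 counts in the lines and 0 in both *sep1 sep2* libraries, which makes it at least 8.11-fold higher. Such bounds are set against a floor of 6 counts per library, which is 3 read pairs if both reads of a pair were counted, as the mostly even low counts would have it.

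The lower genes began with a group at or near 0 counts in both lines. AT1G27570, a phosphatidylinositol 3- and 4-kinase family gene (chromosome 1, 9575538 to 9582376), had 2 and 0 counts in the lines, against 438 and 393 counts in *sep1 sep2*, and was at least 79.3-fold lower. AT2G01550.1, an identifier without a RefSeq entry, had 0 counts in both lines, against 196 and 374 in *sep1 sep2* (at least 54.9-fold lower). AT4G36140, a TIR-NBS-LRR gene, AT3G60950, a C2 domain gene, AT4G36515 and AT4G34881 were at least 42.1-fold, 30.7-fold, 23.4-fold and 10.8-fold lower. Each had at most 2 counts in either line and at most 4 in a library labelled *sep1 sep2 sep3*, and between 52 and 236 counts in each *sep1 sep2* library. These 4 were named after their values were seen, and they lie in the end stretches of chromosomes 3 and 4. AT1G19550, of the glutathione S-transferase family (chromosome 1, 6767451 to 6768158), was lower with the smallest FDR of all genes, at 4.30 and 4.60 CPM in the lines and 60.8 and 73.2 CPM in *sep1 sep2* (log2 fold change -3.91, standard error 0.14, FDR 9.6e-05).

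A pair of DE Cornichon genes, of a family that encodes cargo receptors for export from the endoplasmic reticulum, moved in opposite directions. AT1G12390 was named after its values were seen, and other members of the family are not described here. AT1G12340 had 1.11 and 0.726 CPM in the lines, against 10.8 and 13.2 CPM in *sep1 sep2* (log2 fold change -3.69, FDR 0.0046 from edgeR's test). AT1G12390 had 21.98 and 20.7 CPM in the lines, against 5.33 and 6.001 CPM in *sep1 sep2* (log2 fold change 1.91, FDR 0.0023). Reads that map equally well to related copies were left out of the counts, and the groups did not overlap in either gene. Together with AT1G10980, AT1G11280, AT1G25211, AT1G19550, AT1G27570 and AT4G36500, an uncharacterized gene, they were the 8 genes that were DE in all 19 alternative settings. Of these 8, 7 lie within 5 Mb of *SEP3*.

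**Figure D3:**
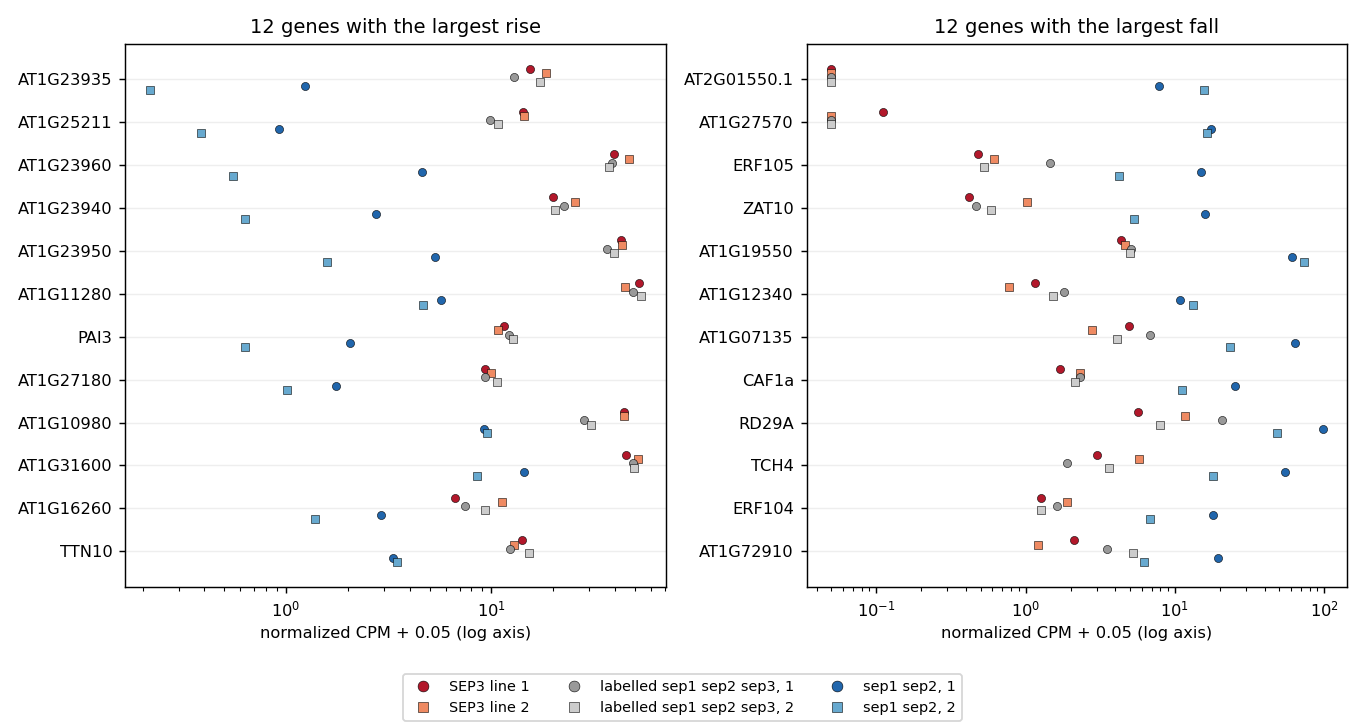
Normalized CPM (log axis, 0.05 added) in each library for the 12 genes with the largest rise (left) and the 12 with the largest fall (right) among DE genes that averaged 5 CPM or more. A further condition of the choice was that the red and orange points of the lines do not overlap the blue points of *sep1 sep2*. For *ERF105*, *ZAT10*, *RD29A* and *TCH4* the first *sep1 sep2* library lies above the second.

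Lists of ERF, touch, WRKY and cold genes, known for quick responses to wounding, touch, pathogens or cold, held 5 of the 12 largest falls. Of their 40 tested members 15 were DE and lower, out of 117 lower genes in all (0.615% of genes tested). The lists and their members were chosen with earlier results of these data known, so these counts are only a description. In the libraries labelled *sep1 sep2 sep3* all 4 lists were closer to the lines than to *sep1 sep2*. Summed CPM of the ERF list were 9.15 and 14.4 in the lines, 14.9 and 11.7 there, and 104 and 37.4 in *sep1 sep2*. The touch list had 60.2 and 59.1, 36.0 and 36.6, and 281 and 123 CPM in that order. The WRKY list had 99.5 and 112, 111 and 111, and 349 and 180 CPM. The cold list had 781 and 906, 954 and 544, and 2487 and 2285 CPM, of which *KIN2* alone gave 468 and 522, 502 and 318, and 1406 and 1354 CPM. Without *sep1 sep2* replicate 1, 0 of the 40 were DE, and 14 were without its replicate 2. Without line 1 or without line 2, 1 was DE, and without the first or second library labelled *sep1 sep2 sep3* 9 or 10 were. Group IX ethylene response factors (ERF), transcription factors that bind the GCC-box, were the list that fell furthest. Of 7 tested, 4 were DE and lower, where 0.615% of all genes tested were, 0 were higher, and the median log2 fold change was -2.96 beside -0.02 over all genes. *ERF105* had 0.43 and 0.565 CPM in the lines, against 15.0 and 4.17 CPM in *sep1 sep2* (log2 fold change -4.27 ± 0.74 standard error, edgeR FDR 0.040). *ERF104* had 1.23 and 1.86 CPM in the lines, against 17.9 and 6.79 CPM in *sep1 sep2*. *ERF6* and *ERF5* had log2 fold changes of -3.21 and -2.33. Replicate 1 exceeded replicate 2 of *sep1 sep2* in these genes, by a median log2 ratio of 1.42 over the list. Without replicate 1, 0 of the 7 were DE and the median was -1.92.

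The touch and zinc finger list had 2 of 9 tested genes DE and lower, with a median log2 fold change of -1.92. *ZAT10*, a zinc finger repressor induced by many stresses, had 0.368 and 0.968 CPM in the lines, against 15.8 and 5.25 CPM in *sep1 sep2* (log2 fold change -4.01, FDR 0.035 from edgeR's test). *TCH4*, a cell wall xyloglucan enzyme induced by touch, had 2.95 and 5.69 CPM in the lines, against 54.3 and 17.8 CPM in *sep1 sep2* (log2 fold change -3.08, FDR 0.047). Both *sep1 sep2* libraries were above both lines, and replicate 1 was about 3 times replicate 2. Without replicate 1, 0 of the 9 were DE and the median was -0.94. Among WRKY factors, which bind the W-box in defence genes, 4 of 13 tested were DE and lower, and the median was -1.02. *WRKY33* had 4.05 and 5.08 CPM in the lines, against 46.3 and 13.8 CPM in *sep1 sep2* (log2 fold change -2.72, FDR 0.047), and *WRKY70* had 34.2 and 34.2 CPM in the lines, against 108 and 69.6 CPM in *sep1 sep2* (log2 fold change -1.38, FDR 0.028). *WRKY53* and *WRKY54* had log2 fold changes of -2.0 and -1.02. *WRKY40*, with 0.675 and 0.605 CPM in the lines, had 31.4 and 2.92 CPM in *sep1 sep2*, and this spread left it at an FDR of 0.067. The list's median was -0.32 without *sep1 sep2* replicate 1, with 0 DE genes.

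Cold-response genes were lower in the lines with less spread between the *sep1 sep2* libraries. Of 11 tested, 5 were DE and lower and 0 were higher, with a median log2 fold change of -1.62. CBF factors bind the DRE, a short element with the core CCGAC, and switch on *COR*, *KIN* and *RD29A* genes, whose products protect cells in cold and drought. *CBF1* itself had 2 counts in each line, against 58 and 40 counts in *sep1 sep2*, and was at least 9.33-fold lower. *KIN2*, the most abundant member, had 468 and 522 CPM in the lines, against 1406 and 1354 CPM in *sep1 sep2* (log2 fold change -1.48 ± 0.20 standard error, edgeR FDR 0.026). *COR47* had 29.8 and 53.0 CPM in the lines and 142 and 112 CPM in *sep1 sep2*, and *RD29A* had 5.59 and 11.7 CPM in the lines and 97.7 and 47.9 CPM in *sep1 sep2*. *KIN1* had a log2 fold change of -1.76. Without *sep1 sep2* replicate 1 the median was -1.44 and 0 of the 11 were DE, and the same number was DE without replicate 2, with a median of -1.80. *KIN1* and *KIN2* are adjacent, closely related genes, and reads that map equally well to both were not counted.

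The 250 bases before the annotated starts of *RD29A* and *WRKY33* are shown as examples that hold the element their list's factors bind, and were chosen for holding it. Of the 5 DE cold genes, *RD29A* was the 1 with the DRE core CCGAC in this window, whereas 3 of the 4 DE WRKY genes held the W-box core TTGAC, and 0 of the 4 DE group IX ERF genes held the GCC-box GCCGCC. The sequences are from RefSeq TAIR10.1, written in the direction of transcription, with the element in capitals. *RD29A* (chr5:21240467-21240716, plus strand) holds CCGAC 3 times, and *WRKY33* (chr2:16107985-16108234, plus strand) holds TTGAC 2 times, read as GTCAA on this strand.
RD29A: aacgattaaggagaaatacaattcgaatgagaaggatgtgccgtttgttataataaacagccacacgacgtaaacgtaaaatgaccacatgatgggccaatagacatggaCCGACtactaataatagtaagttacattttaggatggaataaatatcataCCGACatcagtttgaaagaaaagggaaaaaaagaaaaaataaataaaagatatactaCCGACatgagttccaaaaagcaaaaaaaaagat
WRKY33: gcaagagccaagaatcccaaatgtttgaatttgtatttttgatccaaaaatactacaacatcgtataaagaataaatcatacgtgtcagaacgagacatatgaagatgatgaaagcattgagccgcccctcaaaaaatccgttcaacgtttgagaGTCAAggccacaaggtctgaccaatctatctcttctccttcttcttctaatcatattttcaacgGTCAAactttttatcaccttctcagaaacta

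Each element was searched on both strands of the same 250 bases of all 18890 tested genes with a RefSeq position. GCCGCC was found before 6.09% of 115 lower genes, 0% of 45 higher genes and 1.96% of all tested genes. The 7 lower genes with it included *ZAT10* and *WRKY33*. TTGAC was found before 53.9% of the lower, 28.9% of the higher and 43.9% of all tested genes. CCGAC was found before 15.7% of the lower, 11.1% of the higher and 13.0% of all tested genes, and G-box CACGTG before 7.83%, 6.67% and 7.35%. The rapid stress response element CGCGTT was found before 4.35% of the lower, 4.44% of the higher and 2.69% of all tested genes. These shares are descriptions of letters in a window, with no test.

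Further lower genes with known roles in signalling were named after their values were seen. *ACS6*, an enzyme that makes the ethylene precursor, had 15.0 and 10.6 CPM in the lines, against 70.4 and 32.8 CPM in *sep1 sep2*, and *EFE*, which converts it to ethylene, had 11.5 and 11.1 CPM in the lines, against 26.2 and 22.7 CPM in *sep1 sep2*. *MYC2*, the bHLH factor of jasmonate responses, had 49.5 and 51.3 CPM in the lines, against 156 and 96.7 CPM in *sep1 sep2*. *NHL3*, a membrane protein of pathogen responses, had 13.8 and 18.0 CPM in the lines, against 116 and 61.8 CPM in *sep1 sep2*, and it was still DE without *sep1 sep2* replicate 1 (log2 fold change -1.95, FDR 0.0272 from edgeR's test). Of 5 adjacent TIR domain genes on chromosome 1, 4 were DE and lower, AT1G72910, AT1G72920, *TIR* and AT1G72940, with log2 fold changes of -2.96, -2.81, -1.74 and -1.23. The fifth, AT1G72900, had a log2 fold change of -2.19 (edgeR FDR 0.0654), and the TIR-NBS genes on either side, AT1G72890 and AT1G72950, had 0.11 and -0.56 (edgeR FDR 0.879 and 0.534). *CAF1a*, a deadenylase of mRNA turnover, had 1.66 and 2.26 CPM in the lines, against 25.3 and 11.1 CPM in *sep1 sep2*. AT1G07135, which encodes a glycine-rich protein, had 4.91 and 2.74 CPM in the lines, against 63.1 and 23.2 CPM in *sep1 sep2*.

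Among all 117 lower genes *sep1 sep2* replicate 1 was above replicate 2 in 91, and 21 differed at least 2-fold in that direction. The median log2 ratio of replicate 1 to 2 was 0.38 over the lower genes and 0.30 over the higher genes. Of the 94 lower genes outside 5 Mb of *SEP3*, 5 were still DE without replicate 1, compared with 51 without replicate 2. Of the 37 higher genes within 5 Mb of *SEP3*, 16 were still DE without replicate 1 and 17 without replicate 2. How far the level of replicate 1 accounts for the stress genes beyond these values was not tested.

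**Figure D4:**
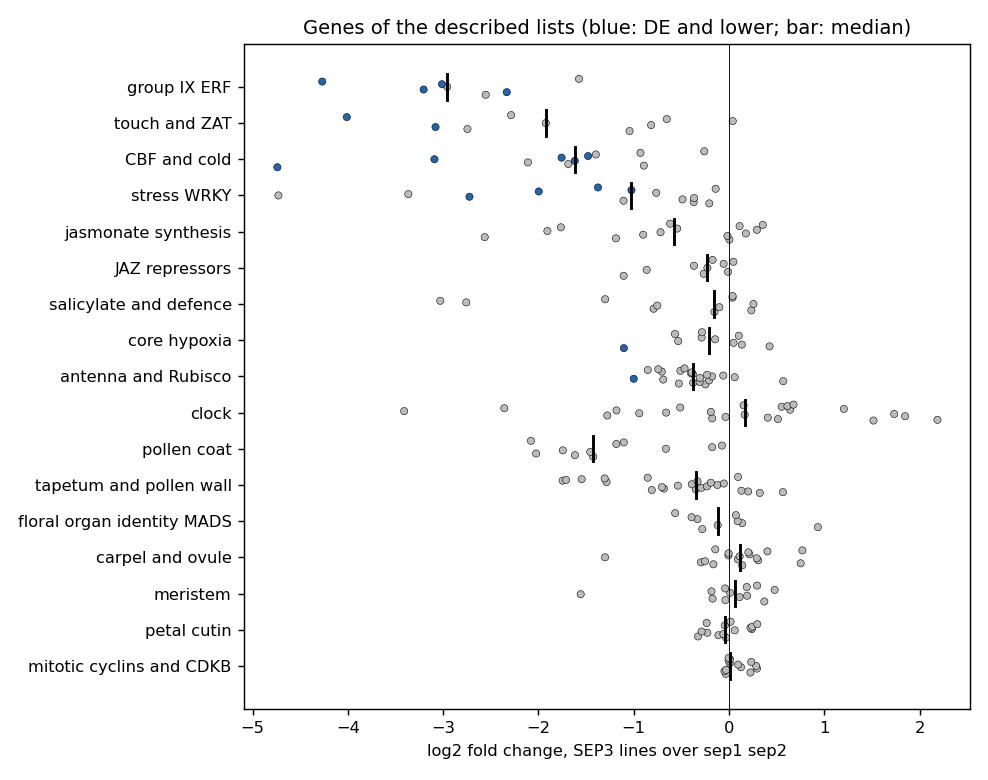
Log2 fold change (lines over *sep1 sep2*) of each tested gene of 17 lists, with DE genes that were lower in blue, other genes in grey and the list median as a bar. The medians of the ERF, touch, cold and WRKY lists were -2.96, -1.92, -1.62 and -1.02, while those of the organ identity, carpel and meristem lists were -0.12, 0.11 and 0.06.

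Most photosynthesis genes had values in the lines a little under those in *sep1 sep2*, without passing the test. Of 21 genes of the light-harvesting antenna and the Rubisco small subunit, 1 was DE, 19 had a negative log2 fold change, and the median was -0.38. An unadjusted p under 0.05 in edgeR's test was reached by 15 of the 21, and by 20.4% of all genes tested. The DE gene *LHCB1.4*, an antenna protein gene, had 23.2 and 23.1 CPM in the lines, against 53.3 and 39.4 CPM in *sep1 sep2* and 75.5 and 85.2 CPM in the libraries labelled *sep1 sep2 sep3* (log2 fold change -1.0, FDR 0.031). It was at the edge of the fold threshold and was DE in 6 of 19 alternative settings. Outside the list, and named after their values were seen, *CP12-2*, a regulator of the Calvin cycle, had 24.2 and 22.3 CPM in the lines, against 70.7 and 63.5 CPM in *sep1 sep2* (log2 fold change -1.53, standard error 0.10, FDR 0.0023), and the carbonic anhydrase gene *CA2* had 16.9 and 12.5 CPM in the lines, against 63.6 and 38.9 CPM in *sep1 sep2*. Of the 117 lower genes, 21 were below all 4 other libraries by over 1.5 times in both lines, and these included *LHCB1.4*, *CP12-2*, *CA2* and *BCA4*. This was not particular to such genes, since the 21 also held the TIR domain genes *TIR* and AT1G72910 and the cold gene *CBF1* (2 counts in each line). Of 10 hypoxia genes 1 was DE, *ADH1*, the alcohol dehydrogenase of fermentation, at 9.24 and 10.2 CPM in the lines and 18.3 and 23.3 CPM in *sep1 sep2*, and it was not DE without either line or either *sep1 sep2* library.

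The lines differed from each other in more genes than the *sep1 sep2* libraries did. Line 1 was at least 2-fold above line 2 in 366 genes (1.92% of genes tested), and line 2 above line 1 in 115 (0.605%), on normalized CPM with 0.5 added and with no test, since each line is 1 library. Late genes of the tapetum led the first group. *LTP12*, a tapetal lipid transfer protein, had 49.7 CPM in line 1 and 0 in line 2, against 120 and 59.4 CPM in *sep1 sep2*. *ATA27*, a tapetal glycosyl hydrolase, had 44.1 CPM in line 1 and 0 in line 2, against 144 and 38.5 CPM in *sep1 sep2*. *TSM1* and *SHT*, which make the spermidine conjugates of the pollen coat, had 56.0 and 33.1 CPM in line 1 and 0.403 and 0.323 CPM in line 2, against at least 72.2 and 37.5 CPM in *sep1 sep2*. AT1G20130, a GDSL lipase gene, and AT5G16960, a dehydrogenase gene, had 25.2 and 23.8 CPM in line 1 and 0 in line 2. In the libraries labelled *sep1 sep2 sep3* these 6 genes reached at most 0.27 CPM. Line 2 was close to those libraries, and line 1 lay within or below the *sep1 sep2* values.

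The lists followed these genes in part. Of 11 tested pollen coat genes, 8 were at least 2-fold higher in line 1 than in line 2 and 0 in line 2 than in line 1, with a median log2 ratio of 3.10. *GRP17*, an oleosin-like protein of the pollen coat, had 25.9 CPM in line 1 and 2.58 in line 2, against 64.6 and 24.1 CPM in *sep1 sep2*. Of 23 tapetum and pollen wall genes, 11 were at least 2-fold higher in line 1, with a median log2 ratio of 0.85. Regulators that act early in the tapetum were close in both lines: *AMS* had 233 CPM in line 1 and 179 in line 2, against 163 and 196 CPM in *sep1 sep2*, and *DYT1* had 3.93 and 5.81 CPM in the lines, against 3.18 and 4.58 CPM in *sep1 sep2*. *MS2*, a pollen wall reductase gene, was intermediate, at 352 CPM in line 1 and 147 CPM in line 2, against 355 and 368 CPM in *sep1 sep2*. In neither list was a gene DE by edgeR or DESeq2, and the median log2 fold changes from *sep1 sep2* were -1.43 for the pollen coat list and -0.35 for the tapetum list. Without line 1, 4 of the 11 pollen coat genes (median -4.12) and 6 of the 23 tapetum genes (median -0.80) were DE, and without line 2 the medians were -0.60 and 0.04 with 0 DE. The pollen coat median was -0.33 without *sep1 sep2* replicate 1 and -2.06 without its replicate 2. *GRP19*, another pollen coat protein gene, and *TSM1* had standard errors of 1.33 and 1.16 on the log2 scale, so that even several-fold differences from *sep1 sep2* were not detectable in such genes.

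Line 2 was above line 1 in another set of genes. AT2G33830, a dormancy and auxin associated gene, had 4.73 CPM in line 1 and 80.7 CPM in line 2, against 263 and 123 CPM in *sep1 sep2*. *SEN1*, a gene of senescing and dark-treated leaves, had 3.90 and 28.2 CPM in the lines, against 21.6 and 11.8 CPM in *sep1 sep2*, and AT2G05540, a glycine-rich protein gene, had 1.2 and 18.1 CPM in the lines, against 6.37 and 3.88 CPM in *sep1 sep2*. *BGLU45*, a beta-glucosidase gene, had 2.39 CPM in line 1 and 12.9 CPM in line 2. *SEP2*, described above, belonged to this set. *FKF1*, the blue light receptor of the flowering clock, had 3.99 CPM in line 1 and 20.2 CPM in line 2, against 63.1 and 59.2 CPM in *sep1 sep2*, and the libraries labelled *sep1 sep2 sep3* had 21.1 and 0.473 CPM.

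**Figure D5:**
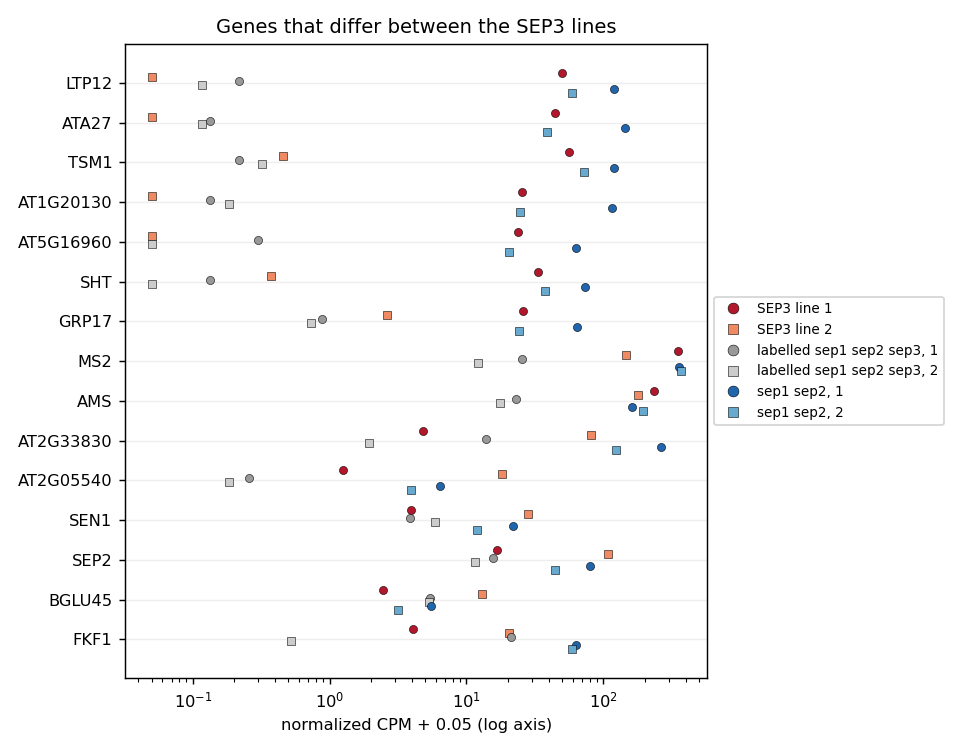
Normalized CPM (log axis, 0.05 added) in each library for the 6 genes with the largest ratio of line 1 to line 2, for *GRP17*, *MS2* and *AMS*, and for the 6 genes with the largest ratio of line 2 to line 1. *LTP12* and *ATA27* of line 2 lie at 0 CPM with the grey points, while line 1 lies at 49.7 and 44.1 CPM near *sep1 sep2*.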

How the data were processed

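Polyadenylated RNA of 6 libraries was sequenced as read pairs. STAR was used by the authors for mapping to TAIR10 and featureCounts (default parameters) for counting reads per gene, without multimapping reads, and the deposited values are raw counts for 33610 genes per library. Use of strand in counting and software versions are not given in the sources used here. Even numbers made up 85.9 to 88.3% of low counts, so a read pair may have counted as 2. The authors' comparison tables (log2 fold changes and p-values) were not used.

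Counts of 24000063 to 31263376 per library were tested with edgeR 4.0.16 in R 4.3.3. All 6 libraries entered one fit with a mean per genotype (TMM normalization, prior count 0.125, 3 residual degrees of freedom), and the contrast was the complemented lines minus *sep1 sep2*. Genes needed 1 CPM in at least 2 of the 4 libraries. Standard errors came from the fold change and its F statistic. Floors of 6 counts (3 pairs) cover counting error only. Names and positions came from RefSeq TAIR10.1, which has an entry for 28932 of the gene identifiers.

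The text names *SEP1* to *SEP4* and *AG*, the 12 largest rises and falls among DE genes that averaged 5 CPM or more with no overlap between groups, DE members of the gene lists, and the 6 genes with the largest ratio between the lines in each direction. Other genes are said to be named after their values were seen, or are members of a list. Genes and lists were chosen with earlier results of these data known. Lists are given as counts and medians, with no test of the list. Overlap with a gene on the other strand was noted for 31 DE genes. Alternatives covered normalization, filters, DESeq2 1.42.0, thresholds, dispersion, halved counts, a replicate block and each library left out.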

Additional observations from a re-analysis of the deposited data

How the results depend on the processing

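The 166 DE genes (49 higher, 117 lower) were computed again under 19 alternatives. RLE, upper quartile, filterByExpr, a mean of at least 5 CPM, robust dispersion and halved counts each gave a total within 1.5 times. Without a filter on low counts 383 genes were DE (93 higher, 290 lower), with DESeq2 334 (86 and 248), and with the FDR alone 341 (91 and 250). Testing against a 2-fold change left 12 (4 and 8). Scaling by library totals alone gave 48 higher and 75 lower genes, and the 4 libraries alone gave 32 higher genes. Leaving out 1 library gave 33 to 173 DE genes, 20 to 39 higher and 10 to 138 lower. The lowest total came without *sep1 sep2* replicate 1, where the remaining *sep1 sep2* library is assumed to vary like the other groups. With a replicate block, 82 genes were DE (30 higher and 52 lower). Same-numbered libraries did not deviate together over all genes (correlations of -0.11, -0.064 and -0.019), and the main fit treated them as unpaired. Such values cannot exclude a pairing, and in the lines the numbers name independent lines. The cause of these changes was not tested. With 2 libraries per group, small changes of genes near 1 CPM could not be detected.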

Other observations

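Clock genes showed values of opposite sign in the lines without a DE call. Of 23 tested, 0 were DE, 11 had an unadjusted p under 0.05 in edgeR's test (20.4% of all genes did), and log2 fold changes ran from -3.41 to 2.19. The count was 5 with the 4 compared libraries alone, 6 with one or the other library labelled *sep1 sep2 sep3* left out, 7 without the filter on low counts, and 1 with DESeq2, robust dispersion or line 2 left out. The morning gene *LHY* had 38.6 and 24.4 CPM in the lines, against 6.45 and 7.42 CPM in *sep1 sep2* (FDR 0.157), and *CCA1* had 31.7 and 21.2 CPM in the lines, against 8.64 and 9.92 CPM in *sep1 sep2* (FDR 0.123). The evening gene *ELF4* had 1.78 and 5.81 CPM in the lines, against 41.0 and 37.7 CPM in *sep1 sep2* (FDR 0.120), and *TOC1* had 50.5 and 80.7 CPM in the lines, against 142 and 110 CPM in *sep1 sep2* (FDR 0.138). The groups did not overlap in these 4 genes, nor did they in 51.3% of all genes tested. The libraries labelled *sep1 sep2 sep3* differed from each other, with 17.4 and 107 CPM of *LHY* and 7.17 and 0.203 CPM of *ELF4*.

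Jasmonate synthesis genes had a median log2 fold change of -0.58 over 14 tested, with 0 DE in edgeR's test. That test gave 9 of the 14 an unadjusted p under 0.05, beside 20.4% of all genes tested. The median was -0.33 without *sep1 sep2* replicate 1, with 0 DE, and -0.75 without its replicate 2, with 4 DE. DESeq2 called 3 and edgeR without the filter 4. The lipoxygenase gene *LOX4* had 4.42 and 3.95 CPM in the lines, against 39.1 and 10.501 CPM in *sep1 sep2* (FDR 0.062 from edgeR's test), and *OPCL1*, a ligase of the pathway, had 14.8 and 17.3 CPM in the lines, against 77.0 and 31.9 CPM in *sep1 sep2* (FDR 0.057). In both genes *sep1 sep2* replicate 1 was the highest library.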
